A study of Rattus norvegicus with 6 samples.

Results

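The thrombospondins and their receptor Cd47 were followed in cultured rat bone marrow cells exposed to short bursts of weak sound (low-intensity pulsed ultrasound, LIPUS), which act on cells mechanically, and in unexposed cells. The genes were Thbs1, Thbs2, Thbs4, Comp (also a thrombospondin) and Cd47, and probes were assigned to them when the probe's RefSeq accession mapped to the rat symbol. Of these 5 genes, 3 had a probe, Thbs1 and Comp with 1 each and Cd47 with 2, and all 3 were among the 21847 genes or unnamed probes tested. No probe accession mapped to Thbs2 or Thbs4, so neither is described further. The cells came from male rats 8 weeks of age and were kept under osteogenic conditions in both groups. Total RNA was taken on day 10 from 3 control samples, which had no treatment, and 3 LIPUS samples, and Cy3-labelled cRNA of each was put on 1 single-colour array. Whether the samples of a group were separate animals or cultures is not stated in the labels, so p-values measure only the spread between these samples.

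Thrombospondins are secreted, calcium-binding glycoproteins that act as matricellular proteins: they bind matrix, proteases, growth factors and cell surface receptors. Thbs1 and Thbs2 form trimers, carry type 1 repeats that bind the scavenger receptor Cd36, and inhibit blood vessel growth; Thbs1 can also release TGF-beta from its latent form. Thbs4 and Comp (cartilage oligomeric matrix protein) form pentamers, have no type 1 repeats, and bind collagens in cartilage, tendon and bone. Cd47 is a widely expressed membrane protein that binds the carboxyl-terminal part of Thbs1 and, on neighbouring phagocytes, the inhibitory receptor Sirpa, through which it signals that a cell should not be engulfed.

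The promoters of Thbs1 and Cd47 are printed because the levels of these genes moved in opposite directions. Each sequence is the 250 bases before the annotated start, 5′ to 3′ on the gene's strand, from RefSeq on build GRCr8, at chr3:125510000-125510249 (plus strand) for Thbs1 and chr11:64438189-64438438 (minus strand) for Cd47. Capitals mark every match, on either strand, to 5 searched motifs: TGANTCA (AP-1), CAGAC (SMAD), TGTGGT (RUNX), GGAATG (TEAD) and GGGCGG (SP1).
Thbs1: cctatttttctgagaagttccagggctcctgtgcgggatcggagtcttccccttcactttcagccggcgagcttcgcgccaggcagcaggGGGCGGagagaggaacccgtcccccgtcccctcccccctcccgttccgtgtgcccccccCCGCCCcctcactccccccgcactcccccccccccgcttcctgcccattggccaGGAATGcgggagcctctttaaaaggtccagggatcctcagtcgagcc
Cd47: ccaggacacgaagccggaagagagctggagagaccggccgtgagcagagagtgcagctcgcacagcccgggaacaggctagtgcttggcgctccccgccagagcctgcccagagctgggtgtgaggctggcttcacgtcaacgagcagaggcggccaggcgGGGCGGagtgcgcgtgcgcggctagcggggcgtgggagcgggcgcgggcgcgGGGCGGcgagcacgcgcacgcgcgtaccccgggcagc
Thbs1 holds 1 TEAD match, 47 to 42 bases before the start, and 2 SP1 matches. Cd47 holds 2 SP1 matches and none of the other 4 motifs. No marked match overlaps another. Of 33469 rat promoter windows of the same length, 12.1% hold a TEAD match and 30.5% an SP1 match; AP-1 letters occur in 6.34%, SMAD in 42.9% and RUNX in 14.5%, and neither promoter holds any of these 3. G and C make up 67.6% of the Thbs1 window and 74.0% of the Cd47 window, against a median of 51.2%. The Comp window holds 2 SMAD matches and none of the other motifs.

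All levels below are log2 values relative to the 75th percentile of the same array, so 0 is the brightness at that percentile. The 6 arrays correlated at 0.964 to 0.986 across genes, and 53.5% to 61.9% of probes were above background. The tilt and place of the scanned grid put control 1 and control 2 on one slide and control 3 with the 3 LIPUS arrays on another; the labels name no slide. Osteoblast markers were present: 7 of 8 were measured, all of them above background on every array except Sp7, which missed on 1 control array. Among erythroid markers, Alas2, Hbb and Slc4a1 were too dim to be tested, while Epor was above background on every array.

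Thbs1 was higher in LIPUS, and the difference was the largest in this set. Its spot brightness (median pixel, local background of 44 to 49) was 553, 437 and 268 on control arrays 1, 2 and 3 and 1467, 1305 and 1144 on LIPUS arrays 1, 2 and 3. After subtraction of background the LIPUS spots lay 14.0 to 22.2 times above the background limit and the control spots 2.26 to 3.81 times above it. The log2 levels were −0.62, −0.61 and −1.60 in control and 0.87, 0.98 and 0.68 in LIPUS. Every LIPUS array was above every control array, and control 3 stood below the other 2 control arrays. Control arrays averaged −0.94 ± 0.57 and LIPUS arrays 0.84 ± 0.15 (SD, n = 3 each), a rise of 1.78 ± 0.26 (SE) or 3.44-fold, with a 95% interval of 2.29-fold to 5.18-fold (limma adjusted p = 0.00456). By size it ranked 17 among all rises tested and 7 among those with a symbol. In bulk RNA, a gene's change per cell and a change in the share of cells that express it cannot be told apart.

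The low reading of control 3 belongs to a spot to which the scan gave a quality flag; no other spot of these probes carried one. With that spot treated as missing the rise was 1.45 (limma adjusted p = 0.00231). In the authors' value table, which holds processed log2 values of the same arrays, control 3 did not stand apart: Thbs1 read from −1.10 to −0.99 on the control arrays and 0.87, 1.05 and 0.68 in LIPUS. The difference there was 1.90 (limma adjusted p = 0.0122), and the control SD was 0.06, against 0.57 from the spot tables. Thbs1 stayed past the threshold whichever single array was left out, with changes of 1.45 to 1.95 and limma adjusted p of 0.0062 to 0.0221. With slide as a fixed block the rise was 2.44 (limma adjusted p = 0.0153), which is LIPUS minus control 3 and therefore rests on that spot.

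Comp did not pass the test. Its spots read 376, 469 and 931 on control arrays 1, 2 and 3 and 799, 642 and 601 on the LIPUS arrays. The log2 levels were −1.10, −0.51 and −0.04 in control and 0.05, −0.03 and −0.17 in LIPUS. The groups overlapped: control 3 lay within the range of the LIPUS arrays, and control 1 was the lowest of all. The difference of 0.50 ± 0.25 (SE) had a 95% interval from −0.06 to 1.06 (limma adjusted p = 0.279), so a rise of up to 2.08-fold and no change both lie inside it. Against control 3 alone, which shares its slide with the LIPUS arrays, the difference was −0.01, and against control 1 and control 2 it was 1.05 and 0.46. The value table gave 0.47 (limma adjusted p = 0.315), again with control 1 lowest at −0.85.

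**Figure D1:**
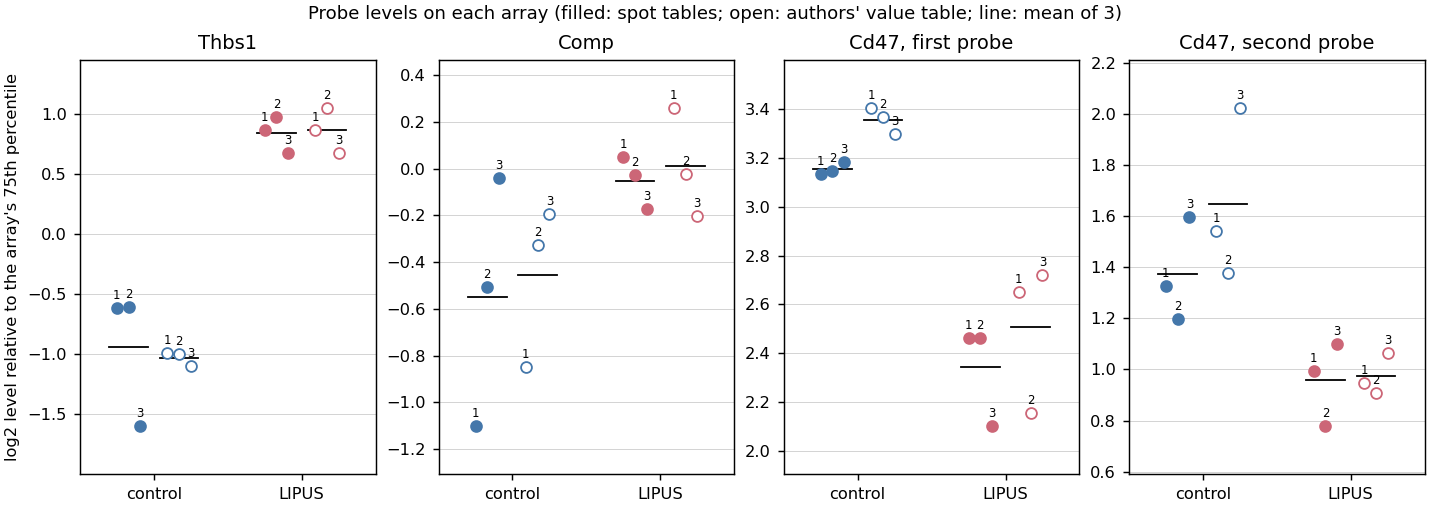
Log2 level of the 4 probes on each array (numbers are replicates), relative to the array's 75th percentile; filled points are from the spot tables, open points from the authors' value table, and lines are means of 3 arrays. Thbs1 lies at −1.60 to −0.61 in control and 0.68 to 0.98 in LIPUS, Comp overlaps between the groups, and both Cd47 probes are lower on every LIPUS array.

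Cd47 was lower in LIPUS by its brighter probe. Spot brightness of that probe was 8082, 6621 and 9394 on control arrays and 4557, 3756 and 3199 on LIPUS arrays, below the scanner limit on every array. Its log2 levels came to 3.13, 3.14 and 3.18 in control and 2.46, 2.46 and 2.10 in LIPUS. The control arrays were nearly alike, and all 3 LIPUS arrays lay below them. From 3.15 ± 0.03 (SD, n = 3) the mean fell to 2.34 ± 0.21 (SD, n = 3), a change of −0.81 ± 0.17 (SE) or 1.75-fold lower, with a 95% interval from −1.18 to −0.44 (limma adjusted p = 0.0202). The call was close to the threshold. It ended without control 1, control 2 or any 1 of the 3 LIPUS arrays (limma adjusted p = 0.0526 to 0.084) and held without control 3 (0.0353); over all 6 of these fits the change was −0.87 to −0.69. With slide as a fixed block the change was −0.84 and did not pass (limma adjusted p = 0.128).

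The second Cd47 probe, which maps to the same accession, ranged from 1.2 to 1.60 in control and from 0.78 to 1.10 in LIPUS. These groups did not overlap either. Its change was −0.42 ± 0.18 (SE) and was not called when every probe was tested on its own (limma adjusted p = 0.204), a test that called 6.51% of 23260 probes. The log2 difference between the 2 Cd47 probes within an array ran from 1.59 to 1.95 on control arrays and from 1.00 to 1.68 on LIPUS arrays, overlapping ranges. That difference changed by −0.39 (exact permutation test, two-sided, p = 0.2, with 0.1 the smallest possible), a test chosen after both probes had been seen. In the value table the 2 probes changed by −0.85 and −0.67 (limma adjusted p = 0.0745 and 0.137).

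Of the 3 measured genes, 1 was called higher and 1 lower, where 2.89% of all tested were called higher and 3.74% lower (6.63% in all). Groups did not overlap for 2 of the 3, against 27.2% of all tested. The size of each change depends on the scaling: under spike-in scaling the median change of all genes moved from 0.03 to −0.32, Thbs1 read 1.43, Comp 0.15 and Cd47 −1.16, and the directions stayed as they were.

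**Figure D2:**
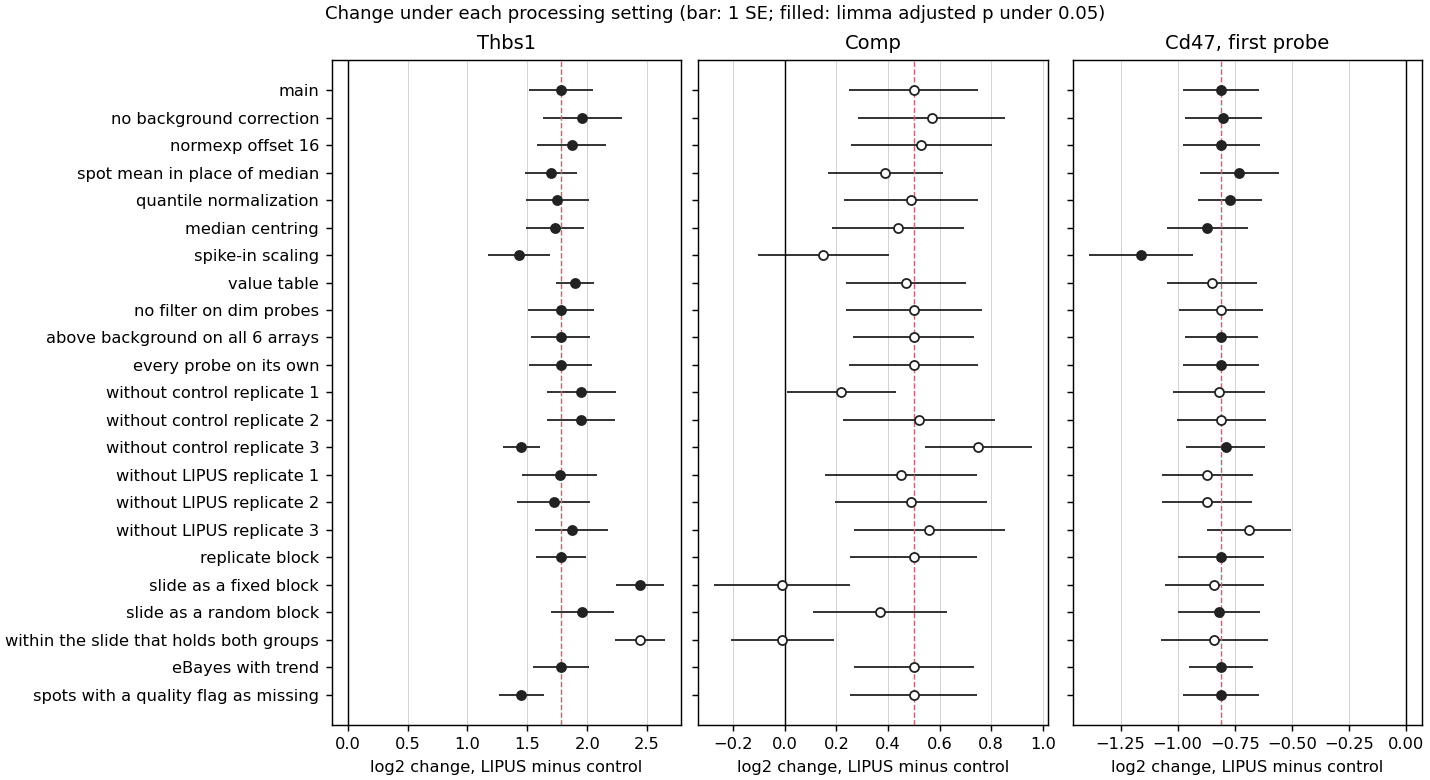
Log2 change of Thbs1, Comp and the first Cd47 probe (LIPUS minus control, bars 1 SE) under the main setting and 22 alternatives, filled where the limma adjusted p was under 0.05. Thbs1 ranges from 1.43 to 2.44, Comp from −0.01 to 0.75 with no filled point, and Cd47 from −1.16 to −0.69 with both kinds of point.

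Partners and relatives were read from 12 lists of receptors, binding partners, regulators and related proteins. Outside the members, 105 of their 225 genes were tested: 5 rose, 6 fell and 94 did not pass, which is 11 of 105 called, where 6.63% of all tested were, with a median change of 0.10 against 0.03. The lists were chosen with earlier results of these data known, so that share is no test of them. All 105 have a symbol, as do only 5697 of the 21847 tested. Of the 94, 7 (Col1a2, Fn1, Grn, Lgals1, Lgals3, Sparc and Spp1) had saturated spots on all 6 arrays, so their changes were not measured; without them 11 of 98 were called, with a median of 0.09. Counts of genes not passed include such genes unless stated.

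Among Cd47 signalling partners 0 rose, 2 fell and 8 did not pass of 10 measured, with a median of 0.08. Sirpa, the phagocyte receptor for Cd47, read 5.05, 4.95 and 4.83 in control and 3.19, 3.02 and 3.17 in LIPUS. The groups were far apart: Sirpa fell by 1.82 ± 0.16 (SE) on the log2 scale (limma adjusted p = 0.000478), 3.52-fold lower, and still passed when slide was a fixed block (0.026) or any single array was left out. Ptpn6, which encodes the phosphatase SHP-1 that Sirpa recruits, fell by 1.21 ± 0.18 (limma adjusted p = 0.00500), with levels of 5.51, 5.63 and 5.20 against 4.30, 4.01 and 4.39; with slide as a fixed block it read −0.97 (0.0923). Bnip3, a mitochondrial protein that can bind Cd47, changed by 0.57, short of the threshold (limma adjusted p = 0.072). The list of phagocytic checkpoint and clearance genes, which shares Sirpa and Ptpn6 with this list, had 0 higher and 2 lower of 10 measured, and the bridging protein gene Mfge8 (0.57) and the checkpoint ligand gene Cd24 (0.67) did not pass (limma adjusted p = 0.0725 and 0.0922).

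Sirpa and Ptpn6 are expressed by macrophages, and macrophage markers were lower as well. Of 7 measured markers 5 fell: Fcgr2b (−2.43), Aif1 (−1.54), Adgre1 (−1.32), Csf1r (−0.98) and Cd14 (−0.88). The calls of Csf1r and Cd14 ended in the value table (limma adjusted p = 0.0539 and 0.0541), that of Cd14 also with slide as a fixed block (0.0959). Csf1r lost its call when control 1 or any 1 LIPUS array was dropped (up to 0.0833), Cd14 when control 1 or LIPUS 2 was left out (up to 0.067). Cd68, which was not called, was at the scanner limit on all 3 control arrays. The mean level over all 7 was 3.32 to 3.43 on control arrays and 2.10 to 2.40 on LIPUS arrays. Of 4 measured endothelial markers 3 fell (Esam −1.80, Ramp2 −1.23, Icam2 −1.05), and the mean over the 4 was 0.24 to 0.32 in control and −0.94 to −0.82 in LIPUS; Pecam1 was too dim to be tested. With slide as a fixed block Esam and Ramp2 did not pass (limma adjusted p = 0.0552 and 0.104), in the value table Ramp2 and Icam2 did not (0.202 and 0.11), and Icam2 lost its call without LIPUS 1 (0.0555). The part of these cell types in the changes of Sirpa, Ptpn6 and Cd47 was not tested.

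**Figure D3:**
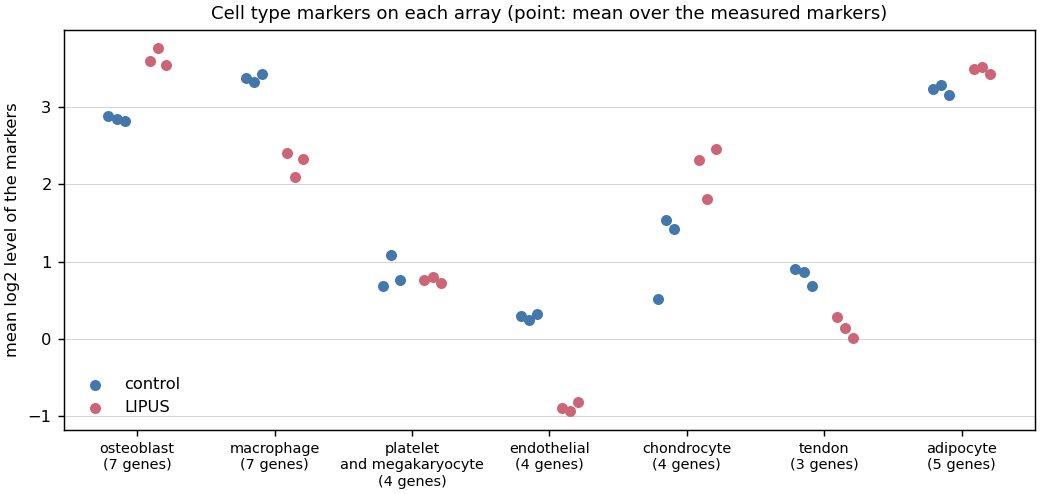
Mean log2 level over the measured markers of 7 cell types on each of the 3 control and 3 LIPUS arrays; each point is 1 array. Macrophage (3.32 to 3.43 in control, 2.10 to 2.40 in LIPUS) and endothelial markers are lower on all LIPUS arrays. The mean of tendon markers (0.68 to 0.91 and 0.01 to 0.28) is lower too. It covers 3 genes: Egr1 (−1.31) was called lower, and Tnmd (−0.49) and Fmod (−0.23) did not pass. Osteoblast markers are higher (2.82 to 2.88 and 3.55 to 3.76). The means of chondrocyte (0.51 to 1.54 and 1.81 to 2.46) and adipocyte markers (3.16 to 3.29 and 3.43 to 3.52) are also higher. Of the 5 adipocyte markers only Cidec (1.09) was called, and Pparg (−0.12) and Lpl (−0.07) read below 0. Adipoq read 0.11, and Fabp4 (0.25) was at the scanner limit on 2 control and 2 LIPUS arrays. Platelet markers overlap.

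Platelets and megakaryocytes store thrombospondin 1. Of 4 measured markers of these cells 1 rose (Gp1bb, 0.88) and 1 fell (Pf4, −1.77, which is 4.34, 4.11 and 4.23 in LIPUS against 6.13, 6.12 and 5.75 in control), and their mean overlapped between the groups at 0.68 to 1.08 and 0.72 to 0.80. The call of Gp1bb ended in 10 of 22 alternatives, among them slide as a fixed block (limma adjusted p = 0.177), the value table (0.114), spike-in scaling, and leaving out control 1 or any 1 LIPUS array (up to 0.0988). Osteoblast markers had 3 higher and 0 lower of 7 measured: Dmp1 (1.59), Smpd3 (1.39) and Phex (1.29), with means of 2.82 to 2.88 in control and 3.55 to 3.76 in LIPUS. Bglap, 1 of the other 4, was saturated on all 6 arrays, and Phex did not pass with slide as a fixed block (limma adjusted p = 0.101). The part of these cells in the rise of Thbs1 was not tested.

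Thrombospondin receptors and binding partners had 2 higher, 0 lower and 13 not passed of 15 measured, with a median of 0.13. Cd36, the receptor for the type 1 repeats, did not pass (0.13 ± 0.16, limma adjusted p = 0.680) and turned to −0.22 under spike-in scaling. The small proteoglycan gene Dcn, whose product binds Thbs1, was higher (limma adjusted p = 0.0181); its fitted difference of 0.81 takes 1 of the 3 LIPUS arrays at the scanner limit, where only a lower bound was read. Mmp2, the protease whose activity and clearance thrombospondins affect, rose by 0.84 ± 0.17 (limma adjusted p = 0.0197). Neither kept its call with slide as a fixed block (0.0959 for Dcn and 0.112 for Mmp2). Leaving out control 1, control 2, LIPUS 1 or LIPUS 2 ended the call of Dcn (limma adjusted p up to 0.0790), and leaving out control 1, LIPUS 1 or LIPUS 2 that of Mmp2 (up to 0.0859). Vldlr, a lipoprotein receptor that binds Thbs1, read 0.45 and did not pass. Itgb3 was too dim to be tested, and Itgav and Lrp1 had no probe with a matching accession.

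In the list of TGF-beta activation and signalling genes limma called 0 of 14 measured, against 6.63% of all tested, with a median of 0.07. At an unadjusted limma p under 0.05 there were 3 of the 14, where 22.1% of all tested were. Tgfb1 read −0.75, −0.55 and 0.04 in control and −0.02, 0.32 and 0.18 in LIPUS: control 3 lay inside the LIPUS range, and the difference of 0.58 ± 0.22 did not pass (limma adjusted p = 0.163). Tgfb3 read −0.39 (0.338), the membrane protease gene Mmp14 0.52 (0.0732) and the inhibitor gene Smad7 0.51 (0.118). In the list of TGF-beta response genes 1 rose, 0 fell and 12 did not pass of 13 measured, with a median of 0.18. The one that rose was Timp1, a protease inhibitor. It was higher (limma adjusted p = 0.0139), but its probe was at the scanner limit on all 3 LIPUS arrays, so the size was not measured: the reading of 0.83 on the log2 scale became 0.48 when scaled to the spike-in spots, and the value table gave 1.55. Its call ended with slide as a fixed block (0.0961) and without control 1, LIPUS 2 or LIPUS 3 (up to 0.0659). The receptor decoy gene Bambi (0.62, 0.0518) and Id2 (0.51, 0.0861) did not pass.

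**Figure D4:**
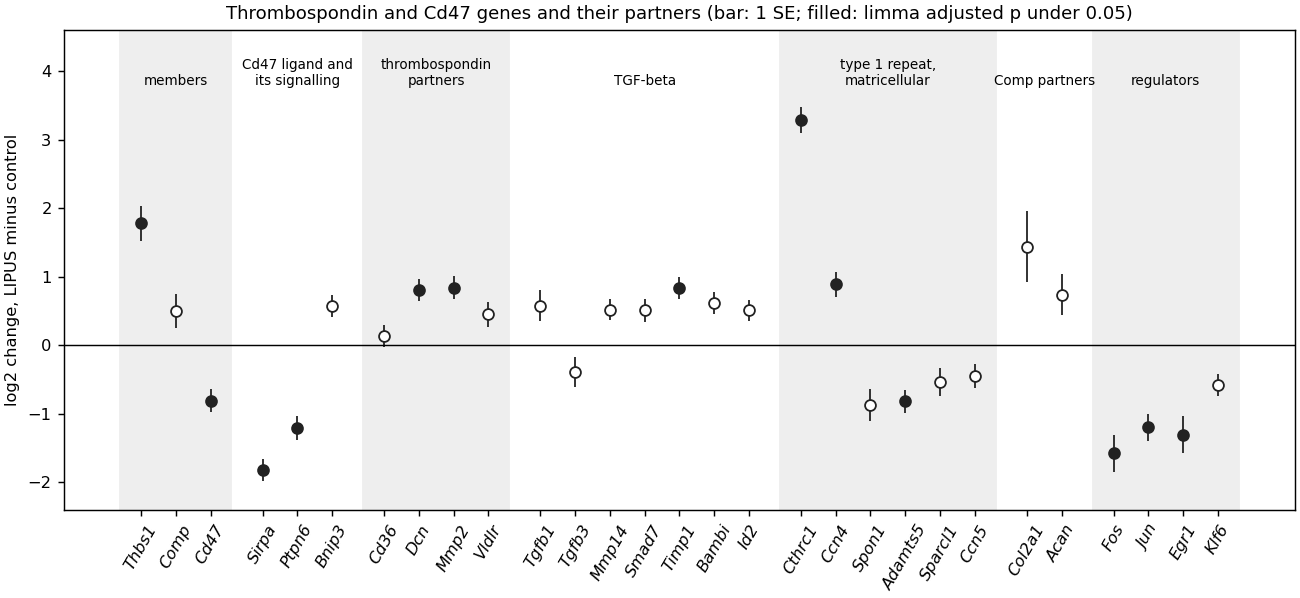
Log2 change (LIPUS minus control, bars 1 SE) of the 3 measured members and of 26 genes from the lists of partners and relatives, filled where the limma adjusted p was under 0.05. Thbs1 (1.78) and Cthrc1 (3.29) are the highest filled points, Sirpa (−1.82) and Fos (−1.58) the lowest, and the open points include Cd36 (0.13) and all TGF-beta genes but Timp1.

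Proteins with thrombospondin type 1 repeats, of which Thbs1 is one, had 2 higher, 1 lower and 10 not passed of 13 measured (median 0.18). Besides Thbs1, Ccn4, a matricellular Wnt target, rose by 0.89 ± 0.18, and Adamts5, a protease of cartilage proteoglycan, fell by 0.82 ± 0.17 (limma adjusted p = 0.0194 and 0.0191). Adamts5 was above background on only 2 LIPUS arrays. Both lost their calls with slide as a fixed block (0.124 and 0.0909); the call of Ccn4 also ended when control 1, control 2 or LIPUS 2 was dropped (up to 0.0746), that of Adamts5 when control 2, LIPUS 1 or LIPUS 2 was (up to 0.0803). Spon1 read −0.87 and did not pass (0.0569). Among matricellular proteins 2 rose, 0 fell and 12 did not pass of 14 tested: Ccn4 and Cthrc1 (3.29 ± 0.19, limma adjusted p = 0.00022). Lgals1, Lgals3, Sparc and Spp1 were saturated on all 6 arrays; without them the median over the other 10 was −0.12, and with them 0.21. Sparcl1 (−0.54) and Ccn5 (−0.45) did not pass. Under spike-in scaling, and without a filter on dim probes, none of Dcn, Mmp2, Timp1 and Ccn4 passed. Adamts5 did not pass without that filter either, nor in the value table (−1.50, limma adjusted p = 0.353).

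Comp's partners and the proteases that cleave it had 0 higher and 1 lower (Adamts5) of 11 tested, Comp included. Col1a2, Fn1 and Grn were saturated on all 6 arrays; of the other 8, 7 read above 0, with a median of 0.38. The cartilage collagen gene Col2a1 (1.44 ± 0.52) and the aggrecan gene Acan (0.74 ± 0.30) did not pass (limma adjusted p = 0.140 and 0.176). Col2a1 read 2.19, 4.34 and 4.07 in control and 5.23, 4.22 and 5.45 in LIPUS. As with Comp, control 1 was the lowest array. The second probe of Col2a1 changed by −0.07. Of 4 measured chondrocyte markers Col11a2 rose (1.51) and 0 fell; of 3 tendon markers 1 fell (Egr1) and Tnmd, a tendon-specific membrane protein, read −0.49 without passing (0.259), above background on only 1 LIPUS array. Of 5 adipocyte markers 1 rose (Cidec, 1.09, not passed with slide as a fixed block at a limma adjusted p of 0.124) and 0 fell.

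Genes listed as regulators of thrombospondin transcription had 0 higher, 3 lower and 9 not passed of 12 measured (median −0.14). Fos fell by 1.58 ± 0.27, Jun by 1.2 ± 0.20 and Egr1 by 1.31 ± 0.27 (limma adjusted p = 0.00923, 0.00714 and 0.0221), the opposite direction to Thbs1; in the value table none of the 3 passed (0.0771, 0.0628 and 0.107). None of these 3 passed with slide as a fixed block (0.160, 0.107 and 0.292), and Egr1 also lost its call without control 1, control 2, LIPUS 2 or LIPUS 3 (up to 0.0907). The call of Egr1 ended in 11 of 22 alternatives, among them no background correction, quantile normalization and no filter on dim probes. Klf6 read −0.58 (0.0612). In the list of actin and mechanotransduction targets limma called 0 of 9 measured, with a median of 0.18. At an unadjusted limma p under 0.05 there were 5 of the 9, where 22.1% of all tested were. Directions were mixed, with 5 of the 9 above 0 and 4 below. Tpm1 (0.51) and Ajuba (0.63) read higher and Axl (−0.65, second probe −0.51) lower. The other 3 probes of Tpm1 changed by 0.22, 0.37 and −0.11. In the nitric oxide and cyclic GMP pathway, which Thbs1 inhibits through Cd47, limma called 0 of 9, with a median of −0.02. Of the 9, 1 had an unadjusted limma p under 0.05, against 22.1% of all tested. Gucy1a1, a subunit of the nitric oxide receptor, read 0.60 and Nos3 −0.34 (limma adjusted p = 0.083 and 0.229).

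The genes whose centred levels over the 6 arrays came closest to those of each member were found among 5694 other symbols, with closeness as the root mean square difference on the log2 scale. For Thbs1 they were Crygd (0.18), Gramd2a (0.24) and Lgr4 (0.27), which rose by 1.66, 1.59 and 1.46. Each was lowest on control 3. Crygd read −1.40 there, against −0.72 and −0.51 on control 1 and control 2. Gramd2a read −0.76 against −0.29 and −0.33, and Lgr4 1.64 against 2.15 and 2.08. The flagged Thbs1 spot of control 3 entered these distances, so the choice of these genes rests in part on it. For Comp they were Mrfap1 (0.05), Rab4b (0.09) and Psmb7 (0.10), each lowest on control 1, and none passed the test (limma adjusted p = 0.259, 0.248 and 0.317). For Cd47 they were Rnase10 (0.05), Fbn2 (0.09) and Chaf1b (0.09), which fell by 0.87, 0.79 and 0.79. None of these 3 passed with slide as a fixed block (limma adjusted p = 0.124, 0.0747 and 0.148), and in the value table Rnase10 and Fbn2 did not (0.161 and 0.0774). Single arrays also ended their calls: control 1 or LIPUS 3 for Rnase10 (up to 0.0606), control 1 or any 1 LIPUS array for Fbn2 (up to 0.0941), and control 1, control 2, LIPUS 2 or LIPUS 3 for Chaf1b (up to 0.0823). All 6 arrays enter these distances, so a change like that of the member is part of how the genes were chosen. The distances also share arrays, scaling and slide with the changes above.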

How the data were processed

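Gene expression was measured on 6 single-colour arrays, 3 control and 3 LIPUS. The deposited spot tables give, per the file headers, brightness of spot and local background as intensity without normalization, pixels at the scanner limit in percent, and spot position and quality flag as a score. The authors also deposited a table of processed log2 values whose 75th percentile is 0 in every column; how they made it is not given in the sources used here, and it served as an alternative.

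Spot medians were background-corrected with limma's normexp (offset 50) and put on the log2 scale, spots of the same probe were averaged (41012 gene probes), and the 75th percentile of the array was subtracted. A probe counted as above background where its net brightness exceeded the 95th percentile of the array's 153 negative control spots; 23260 probes did so on at least 3 arrays. Symbols came from the RefSeq table of GRCr8 (10768 probes matched), and the brightest probe stood for a symbol. The groups were compared in limma 3.58.1 (lmFit and eBayes, group only) in R 4.3.3, two-sided, with Benjamini-Hochberg adjustment over all 21847 tested and a threshold of 0.05. The fit was tested on simulated data. A log2 change is LIPUS minus control; a list median is beside the median over all tested. The number of arrays limits the precision.

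The members and the 20 lists (276 genes, 137 tested) were chosen with earlier results of these data known. Named genes are all members, up to 4 genes per list with the smallest p, the partners Sirpa, Cd36 and Tgfb1, and the 3 genes most like each member; Csf1r was named after its values were seen. Not every gene the rule gives is printed. Slides were inferred from the grid's tilt. Alternatives covered background, offset, scaling, filter, probe choice, single arrays, replicate number and slide. Protein sequences were not used here. Figures used matplotlib 3.10.9 and Python 3.11.15.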

Additional observations from a re-analysis of the deposited data

How the results depend on the processing

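Over 22 alternatives Thbs1 kept its direction and passed in 21; within the slide that holds both groups, with 1 control array assumed to vary like the others, it read 2.44 (limma adjusted p = 0.0732). Comp passed in none (limma adjusted p = 0.066 to 0.991) and turned to −0.01 with slide as a fixed block and within that slide. Cd47 stayed lower in all 22 and passed in 13. It did not pass in the value table (−0.85, limma adjusted p = 0.0745), without a filter on dim probes (−0.81, 0.0696), with slide as a fixed block (−0.84, 0.128) or within the slide (−0.84, 0.196), nor without any 1 array but control 3 (−0.87 to −0.69). Its second probe passed only under spike-in scaling (−0.77, 0.0277). Cd36 (−0.22 under spike-in scaling), Mrfap1 (0) and Psmb7 (−0.06, both with slide as a fixed block and within the slide) lost their direction; none had passed. The cause was not tested.

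The count of 1449 called was 3719 under spike-in scaling, 805 in the value table, 655 without a filter, 282 with slide as a fixed block, 2360 with an intensity trend in eBayes, and 642 to 2168 with 1 array left out; within the slide limma called 0 (3339 at an unadjusted p under 0.05, against 4827 over all arrays). Higher genes made up 43.6% of calls, 32.3% with median centring and 5.3% under spike-in scaling. Of the listed partners, 5 were called higher and 6 lower; the counts were 2 and 21 under spike-in scaling, 15 and 10 with the trend, 1 and 1 with slide as a fixed block, and 0 and 0 within the slide. Those higher numbered 9 after quantile normalization, 1 without a filter, 12 where all 6 arrays had to be above background, and 1 to 10 with 1 array left out. Those lower numbered 2 in the value table. Of 880 counts over single lists, 123 moved by more than 1.5 times. With the replicate number as a block 1175 were called, Thbs1 at an adjusted p of 0.00258 and Cd47 at 0.0386 in limma. Same-numbered arrays correlated at 0.001, 0.009 and −0.012 in their deviations, and the other pairs at −0.017 to 0.016. With 3 arrays per group these values cannot show whether the numbers pair the samples. Treating spots with a quality flag as missing, and leaving out listed genes at the scanner limit on all 6 arrays, which left 5 higher and 6 lower, were chosen after seeing the data.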
